A study of Mus musculus with 20 samples.

Results

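The kidney RNA of Alport mice that had received the angiotensin-converting enzyme inhibitor ramipril was compared with that of wild-type mice, to describe which genes remained abnormal after treatment and which were at the wild-type level. The comparison holds 8 of the 20 mice of the series, 3 in the ACEi group and 5 in the WT group, chosen by their group label, and 17622 of the 47069 genes in the count table passed the filter on low counts and were tested. The ACEi mice were F1-Col4a3-/- males of the strain 129SJ x C57Bl/6J, in which germline disruption removes the α3 chain of type IV collagen, and they drank ramipril at 11 mg/L from 5 weeks of age (the deposited library table gives 4 mg/kg). They also received weekly injections of PBS. The WT mice had the same mixed strain, an intact Col4a3 gene and no treatment or injection. The 6 Veh mice, F1-Col4a3-/- males injected with PBS alone over the same weeks, were used to show how far each gene had moved in the untreated disease. The 6 anti-miR-21-treated mice of the series entered the fit but are not described. All mice were killed at 15 weeks of age. The ACEi mice therefore differed from the WT mice in genotype, in injection and in ramipril, and these 3 cannot be told apart in this comparison.

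Type IV collagen is the network-forming collagen of basement membranes, and the mature filter of the glomerulus is built from its α3, α4 and α5 chains. Without the α3 chain the filter leaks protein, glomeruli scar, and the tubules that they feed are lost while macrophages, lymphocytes and matrix-producing fibroblasts accumulate between them. Angiotensin-converting enzyme makes angiotensin II, which constricts the vessel that drains the glomerulus and restrains the release of renin, and its inhibition is the standard treatment of Alport syndrome.

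Col4a3 itself (chr1:82586921-82722059, GRCm38, plus strand) was measured in every mouse first. Its level was 194, 208.3, 222, 222 and 238 CPM (the count relative to the scaled size of the library) in WT mice 1 to 5 and 56.2, 42.8 and 46.4 CPM in ACEi mice 1 to 3. The groups did not overlap (log2 difference of ACEi from WT with its SE -2.16 ± 0.16 log2, adjusted p = 8.45e-09), and the ACEi level did not differ from that of the Veh mice past the threshold (adjusted p = 0.0752). The reads that remained were not located within the gene, because the table holds 1 value per gene.

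The estimated counts summed to between 28649279 and 29159042 per mouse in ACEi and between 28801036 and 29385466 in WT, so depth was nearly equal. The protein genes of the mitochondrial genome took a median of 10.3% of the counts in ACEi mice (9.39% to 10.4%), 12.9% in WT mice (up to 13.8%) and 6.94% in Veh mice (5.82% to 8.07%). The libraries had been run on 2 flow cells, with 1 ACEi and 3 WT mice on the first and 2 ACEi and 2 WT mice on the second. The extraction text in the labels names adipose tissue, whereas the tissue is given as kidney. Proximal tubule markers were abundant in all mice, while the summed level of the 8 adipocyte markers was 385 to 481 CPM in ACEi, 931 to 1255 CPM in WT and 122 to 714 CPM in Veh. In WT mice this sum came mostly from Lpl, a lipase that is made in many tissues. Lpl was called as lower in Veh than in WT, whereas 6 of the other members were called as higher in Veh than in WT, and 5 as lower in ACEi than in Veh. No label ties mice to litters or cages, so the p-values measure the spread between these mice.

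After ramipril, 8405 of the 17622 genes tested (47.7%) still differed from WT at an adjusted p under 0.05, the rule by which a gene is called here. Of these, 4432 (25.2% of the genes tested) were higher and 3973 (22.5%) were lower than in WT. The difference was under 1.5-fold for 3532 of the called genes. More of the called genes were at least 2-fold higher (2405, 13.6%) than at least 2-fold lower (529, 3.0%). Genes near 0 in WT passed the filter through the groups in which they were high and can hardly fall, so this split is a description. CPM did not overlap between the 3 ACEi and 5 WT mice for 8128 genes (46.1%). At the other end, 4954 genes (28.1%) were not called and had a 95% interval of the difference that lay within 1.5-fold of WT in both directions, which is the meaning of "at the WT level" below. The median log2 difference over all genes tested was -0.0046, and the median standard error (SE) of a difference was 0.15. Scaling to the library totals raised the median of all genes to 0.31 and the share of higher genes among the calls from 52.7% to 85.6%, so the direction of small differences depends on the scaling.

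The same genes were called between Veh and WT mice in 12867 cases (73.0%), 6869 higher (39.0%) and 5998 lower (34.0%). This comparison shares the 5 WT mice with the one above, so the values are set side by side and not tested against each other. Of the 12867 genes, 8033 (62.4%) were still called in the same direction in ACEi and 2742 (21.3%) were at the WT level. A further 15 were called in the opposite direction, and 2077 (16.1%) met neither rule and are undecided. Of the 8033, 1697 (13.2% of the 12867) also had an interval within 1.5-fold of WT, so they were called but close to it. Among the 8033, the direct comparison of ACEi with Veh called 4441 as nearer to WT than in Veh, 22 as further away and left 3570 uncalled. That direct comparison shares its 3 ACEi mice and its 6 Veh mice with the comparisons above. It called 7074 of all genes tested (40.1%), 21% as higher and 19.1% as lower in ACEi than in Veh. Genes that remained high had a median log2 difference from WT of 1.15 in ACEi and 1.66 in Veh, and those that remained low had a median of -0.51 in ACEi and -0.93 in Veh.

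The genes at the WT level in ACEi were mainly those that had moved little in Veh. Of the 1495 genes that were higher in Veh by less than 0.5 on the log2 scale, 65.4% were at the WT level in ACEi and 30.2% were still called. For the 1781 genes higher by 1 to 2 log2 units these shares were 0.561% and 70.3%, with 29.1% undecided. Of the 1030 genes higher by at least 3 log2 units none was at the WT level, 89.4% were still called and 10.6% were undecided. A gene with a large SE has an interval too wide to lie within 1.5-fold of WT at any difference. The shares at the WT level therefore do not count every gene that may have returned. The genes that were lower in Veh had 61.8% at the WT level in the smallest class and none in the classes beyond 2 log2 units. Genes not shown to be at the WT level had often moved toward it. Of the 176 genes lower by at least 3 log2 units, 86.9% were called as higher in ACEi than in Veh, and their median moved from -3.52 in Veh to -1.40 in ACEi. Of the 1030 genes higher by at least 3 log2 units, 50.3% were called as lower in ACEi than in Veh, with medians of 3.77 and 2.96. The classes were cut by the Veh difference, which shares the WT mice with the ACEi difference. It also shares the Veh mice with the comparison of ACEi with Veh. Cutting on a large Veh difference favours calls toward WT there, so all these shares are a description.

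**Figure D1:**
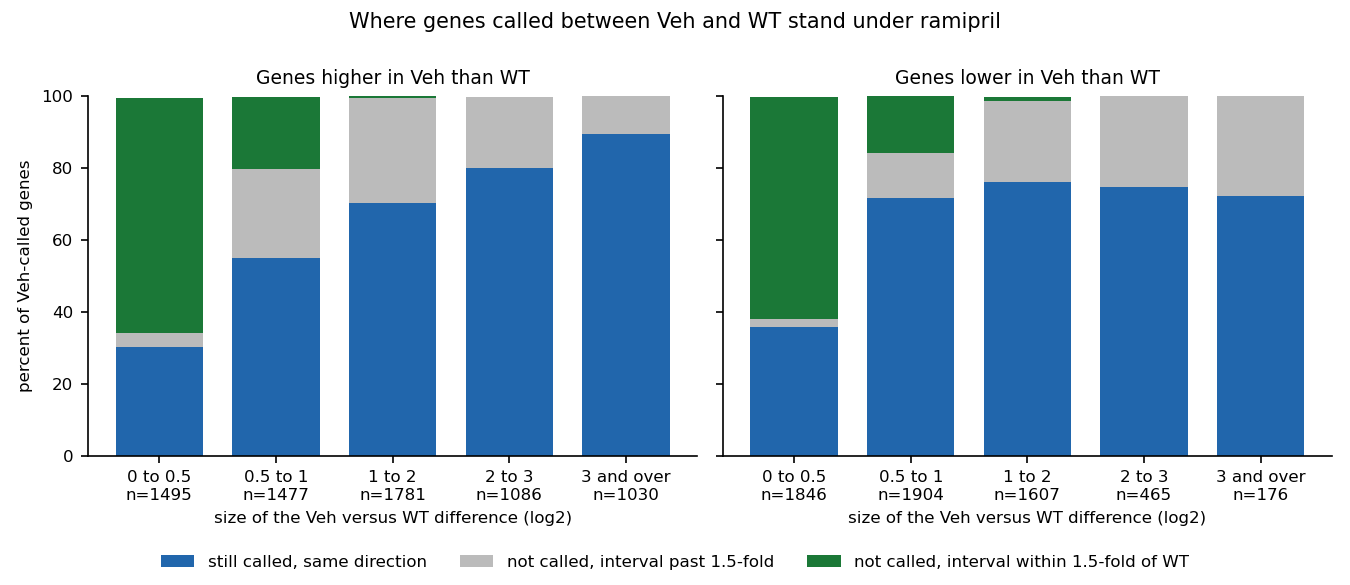
Share of genes (percent, vertical axis) called between Veh and WT that were still called in ACEi, undecided or at the WT level, in classes of the size of the Veh difference (log2, horizontal axis), for genes higher and lower in Veh. The share at the WT level was 65.4% and 61.8% in the smallest classes and 0 beyond 2 log2 units, and genes called in the opposite direction (15 in all) are not drawn.

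The gene groups described next were lists of markers and pathway members. Each is given by the number of its tested members that were called, which is to be read against 25.2% higher and 22.5% lower over all genes, and by its median log2 difference from WT, against -0.0046 in ACEi and 0.07 in Veh over all genes. Counts called against Veh are to be read against 21% higher and 19.1% lower, and counts at the WT level against 28.1%. Among genes 1 to 2 log2 units from WT in Veh, 51.3% of the higher and 77.1% of the lower ones were called toward WT against Veh. Members near 0 in WT passed the filter on low counts through the groups in which they were high, so these counts and medians are descriptions. In whole-kidney RNA, fewer cells of a type and less RNA per cell cannot be told apart.

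**Figure D2:**
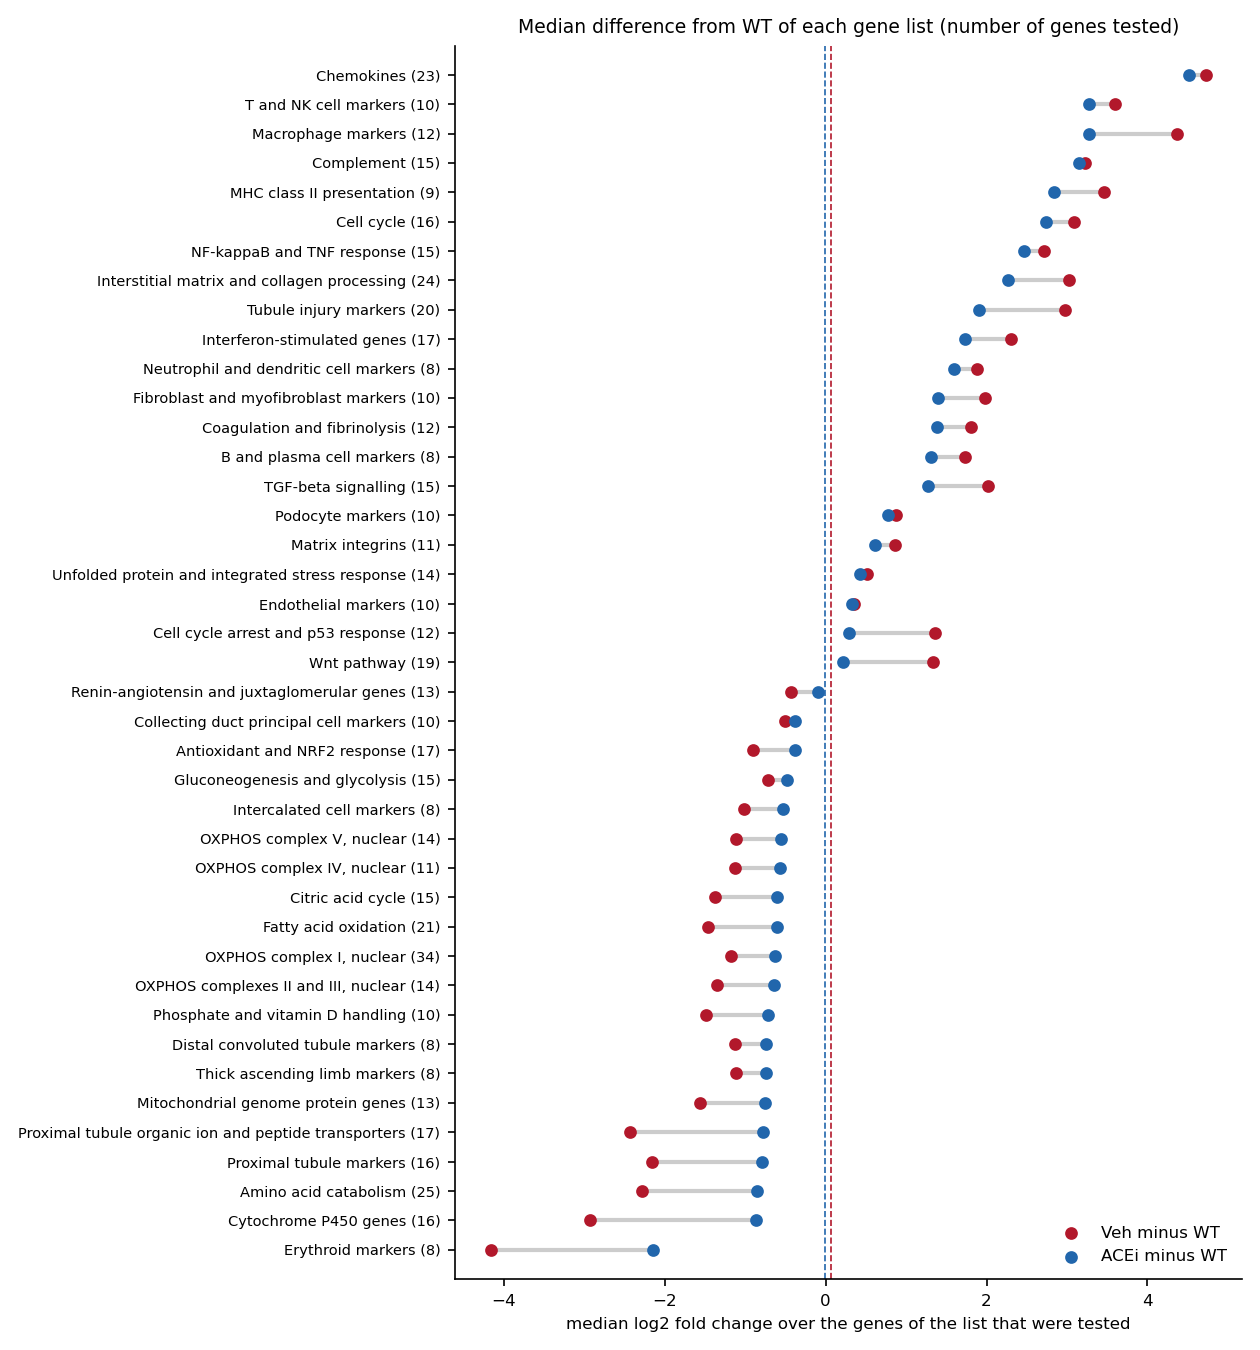
Median log2 difference from WT (horizontal axis) of 41 gene lists in ACEi and in Veh, 1 line per list, with dashed lines at the medians over all genes tested. Chemokines (4.52), T and NK cell markers (3.28) and macrophage markers (3.27) are drawn far above WT in ACEi and erythroid markers (-2.14) below, but with 10 counts required in every mouse the first 3 medians were 1.90, 1.46 and 3.33.

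Chemokines and other genes of inflammation remained far above WT. Of 23 chemokines, the secreted proteins that attract leukocytes, 22 were higher than in WT and none was lower, with a median of 4.52 in ACEi and 4.73 in Veh. With 10 counts required in every mouse 8 members were left, with 7 higher and a median of 1.90. Ccl2, which draws monocytes from the blood, stood at 0.401, 0.287, 0.0845, 0.164 and 0.419 CPM in the WT mice and at 37.7, 31.5 and 36.8 CPM in the ACEi mice. It was 129-fold higher than in WT (7.01 ± 0.58 log2, adjusted p = 1.93e-10), and the Veh mice, with 25.2, 34.2 and 57.9 CPM as the lowest, median and highest, overlapped the ACEi mice. Cxcl10, a chemokine for activated T cells that interferon induces, was at 0.891, 1.64, 2.37, 2.0 and 1.43 CPM in WT and at 39.5, 61.7 and 56.8 CPM in ACEi. The groups did not overlap, which the rule that named this gene required (4.97 ± 0.44 log2, adjusted p = 1.16e-08). The log2 difference of Veh from WT was 4.73. Cxcl9, a chemokine for the same receptor, was at 5.8, 22.7 and 14.1 CPM in ACEi against 0.356 to 0.695 CPM in WT (4.73 ± 0.67 log2, adjusted p = 4.8e-06). Ccl5, a chemokine made by T cells among others, was 46-fold higher (5.52 ± 0.56 log2, adjusted p = 1.83e-08). Ccl20 had no count in any WT mouse and 1.84, 1.61 and 2.28 CPM in the ACEi mice, so no fold is given. The exception was Cxcl12, a constitutive chemokine of stromal cells, which was not called (-0.25 ± 0.24 log2, adjusted p = 0.418). Of the 23, 8 were called as lower in ACEi than in Veh.

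Markers of the leukocytes themselves also remained high. All 12 macrophage markers were higher than in WT and all 12 were called as lower than in Veh, with medians of 3.27 and 4.37. Their summed level was 895 to 1157 CPM in ACEi, 167 to 208.3 CPM in WT and 1798 to 2254 CPM in Veh, without overlap. Lyz2, the lysozyme of myeloid cells, was at 12, 29.3, 25.9, 32.9 and 18.7 CPM in WT and at 332, 293 and 445 CPM in ACEi (3.91 ± 0.27 log2, adjusted p = 1.15e-09). It stood below the lowest Veh mouse in every ACEi mouse (Veh 646, 729 and 804 CPM). The least changed member was Csf1r, the receptor of the macrophage growth factor CSF1 (0.40 ± 0.10 log2, adjusted p = 0.00165). Of 10 T and NK cell markers 9 were higher than in WT and none was called as different from Veh, with medians of 3.28 and 3.60. With 10 counts required in every mouse 2 members were left. These transcripts were rare, at a summed 22.7 to 40.1 CPM in ACEi and 18.5 to 73.4 CPM in Veh, so that the absence of a call says little about a difference. Of 8 B and plasma cell markers 5 were higher than in WT (3, 2 and 3 without ACEi mouse 1, ACEi mouse 3 and WT mouse 5), led by the immunoglobulin heavy chain Ighm (1.95 ± 0.42 log2, adjusted p = 0.000623). Of 8 neutrophil and dendritic cell markers 5 were higher, led by Itgax, the integrin CD11c of dendritic cells and macrophages (3.67 ± 0.26 log2, adjusted p = 9.17e-10), whereas the neutrophil genes S100a8, S100a9 and Cxcr2 were not called.

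Genes of the inflammatory response were also above WT. All 9 genes of MHC class II presentation, by which peptides are shown to helper T cells, were higher than in WT (median 2.84, Veh 3.46). H2-DMb2, a chain of the molecule that loads the peptides, was at 29, 33.9 and 32.9 CPM in ACEi and 0.378 to 1.6 CPM in WT (4.76 ± 0.41 log2, adjusted p = 6.02e-09). All 15 NF-kappaB and TNF response genes were higher, 9 of them called as lower than in Veh, from Tnfrsf1a, a TNF receptor (0.97 ± 0.089 log2, adjusted p = 2.59e-08), up to Il6, an inflammatory cytokine at 0.820, 1.15 and 0.238 CPM in ACEi and at most 0.0409 CPM in WT. Of 17 interferon-stimulated genes 16 were higher, led by the antiviral Mx1 (3.59 ± 0.39 log2, adjusted p = 1.43e-07), and Rsad2 was not called (0.089 ± 0.27 log2, adjusted p = 0.814). Ubd, a ubiquitin-like protein that inflammatory cytokines induce, was 62-fold higher, with 25.4, 26.7 and 31.7 CPM in ACEi against 0.253 to 0.613 CPM in WT. Vcam1, the adhesion molecule that holds leukocytes on activated endothelium and tubules, was at 6.06, 9.02, 7.9, 5.56 and 3.48 CPM in WT and at 255, 228 and 279.8 CPM in ACEi (5.31 ± 0.24 log2, adjusted p = 5.53e-11). Its Veh range overlapped the ACEi values (235, 322 and 384 CPM). Of 15 complement genes 13 were higher and 1 lower, with medians of 3.15 in ACEi and 3.22 in Veh. C3, the central complement protein, was at 31.6, 31.2, 23.1, 22.4 and 31 CPM in WT and at 696, 601 and 631 CPM in ACEi (4.53 ± 0.26 log2, adjusted p = 1.6e-10). Cd55, which protects cells from complement, was the lower member (-0.36 ± 0.10 log2, adjusted p = 0.00763), though not under library totals, and Cfb, a protease of the alternative pathway that shares most of its exon bases with another annotated gene, was at -0.00092 log2 from WT.

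**Figure D3:**
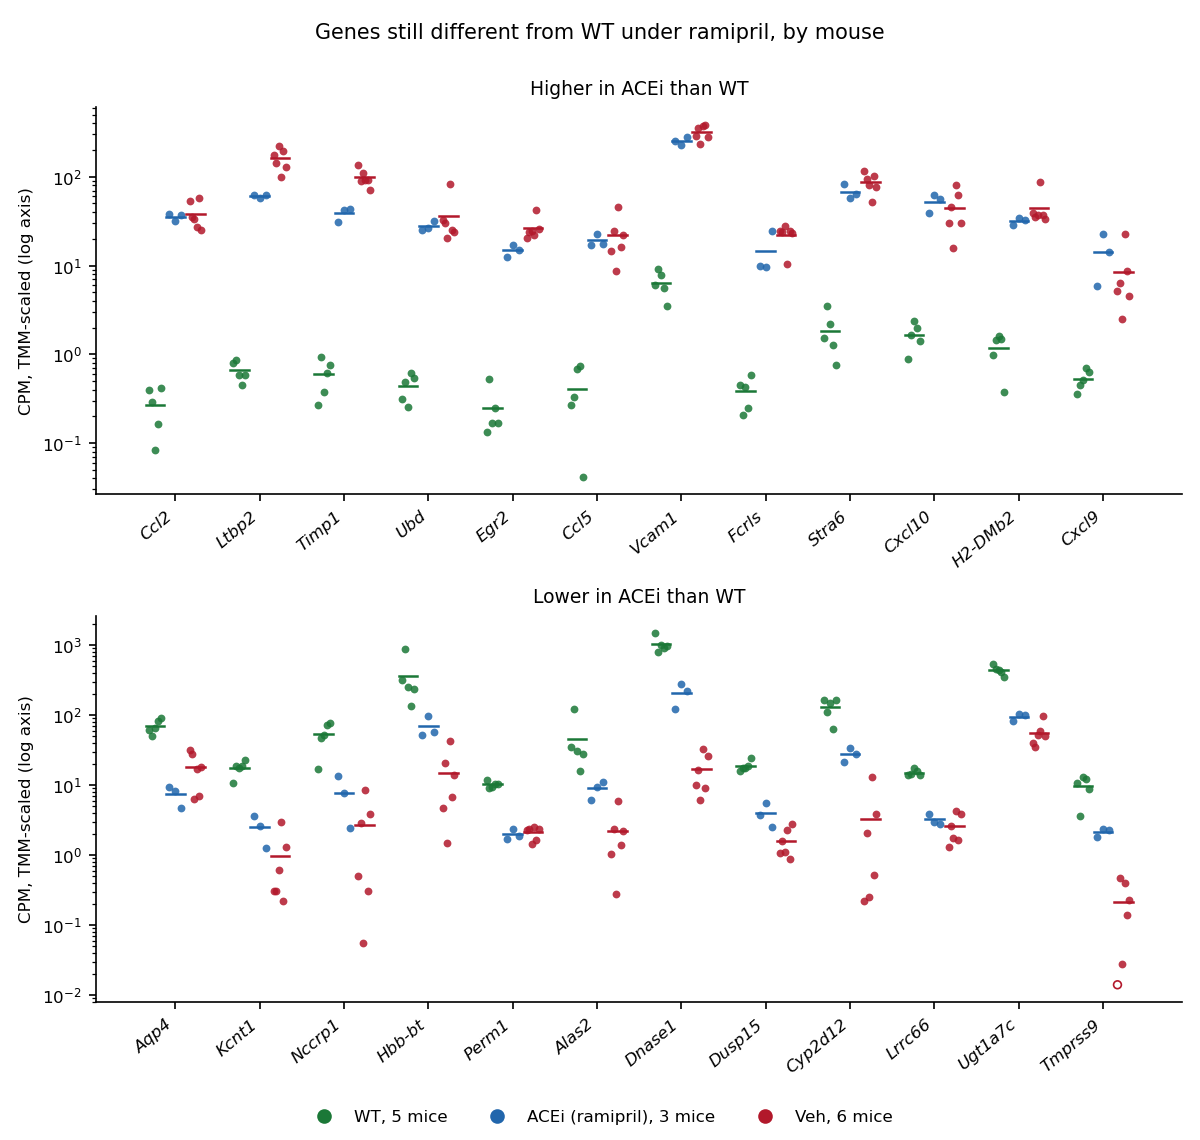
CPM (log axis) of the 12 genes furthest above and the 12 furthest below WT in ACEi by the naming rule, with 1 point per mouse for 5 WT, 3 ACEi and 6 Veh mice and a line at each group's mean. The naming rule takes only genes whose ACEi and WT points do not overlap. The open circle is a Veh mouse at 0 for Tmprss9.

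Genes of fibrosis stayed above WT, and most of the matrix genes were below their Veh level. Of 24 genes for interstitial matrix and collagen processing, 23 were higher than in WT and 17 were called as lower than in Veh, with medians of 2.26 and 3.03. Timp1, an inhibitor of the proteases that break down matrix, was at 0.267, 0.943, 0.380, 0.613 and 0.755 CPM in WT and at 30.9, 42.3 and 43.3 CPM in ACEi, 64.6-fold higher (6.01 ± 0.43 log2, adjusted p = 1.96e-10). The ACEi mice lay below all Veh mice (71, 91.1 and 136 CPM), and the difference from Veh was -1.34 log2 (adjusted p = 0.000786). Col1a1, a chain of the main scar collagen that was picked after its values were seen, was at 46.3, 83.9, 58.6, 61.1 and 35.9 CPM in WT, at 488, 563 and 524 CPM in ACEi and at 1057, 1179 and 1315 CPM in Veh as lowest, median and highest. Postn, a matrix protein of activated fibroblasts, was the 1 member not called (0.66 ± 0.31 log2, adjusted p = 0.0857). Of the 6 chains of type IV collagen 2 were higher than in WT, 2 were lower and 2 were not called. The higher ones, Col4a1 and Col4a2, form the general basement membrane and were 1.49 and 1.44 log2 above WT. Beside Col4a3, its partner chain in the filter Col4a4 was lower (-0.68 ± 0.12 log2, adjusted p = 0.000163), whereas Col4a5, the third chain there, was at 0.078 log2 (adjusted p = 0.625) and Col4a6 at 0.52 log2 (adjusted p = 0.26).

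Of 15 genes of transforming growth factor β signalling 13 were higher than in WT, with 12 called as lower than in Veh (medians 1.27 and 2.02). Ltbp2, a relative of the proteins that tether latent TGF-β to the matrix, was at 0.802, 0.861, 0.591, 0.450 and 0.587 CPM in WT and at 61.8, 57.8 and 62.5 CPM in ACEi. It was 91.8-fold higher (6.52 ± 0.41 log2, adjusted p = 1.09e-10), and the Veh mice ranged from 99.9 to 222 CPM, above every ACEi mouse. Ltbp1, which does tether TGF-β, was not called (-0.12 ± 0.29 log2, adjusted p = 0.772, Veh 0.97). Of 10 fibroblast and myofibroblast markers 8 were higher, led by the surface protein Thy1 (2.89 ± 0.29 log2, adjusted p = 9.27e-08). The smooth muscle genes Myl9 (at the WT level, 0.083 log2) and Cnn1 (-0.37 ± 0.48 log2, adjusted p = 0.552) were not called. The summed level of these markers was 729.7 to 859.9 CPM in ACEi, 272 to 377 CPM in WT and 1199 to 1502 CPM in Veh, and it moved with the matrix genes. The part of these cells in the matrix result was not tested. Of 11 integrins that bind matrix 7 were higher, led by the fibronectin receptor chain Itga5 (1.60 ± 0.16 log2, adjusted p = 1.18e-07). The 9 injury genes that the study itself had named were all higher (median 2.84), which is not independent evidence because they were chosen on these samples.

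Markers of injured tubule cells were high in ACEi. Of 20 such genes 16 were higher than in WT and 15 were called as lower than in Veh (medians 1.91 and 2.98). Krt20, a keratin of injured tubules, was at 18.8, 12.3 and 18.3 CPM in ACEi against at most 0.572 CPM in WT (6.21 ± 0.49 log2, adjusted p = 1.96e-10), and its difference from Veh was not called (adjusted p = 0.294). The following 2 markers were picked after their values were seen. Havcr1, the kidney injury molecule of proximal tubule cells, was at 20.3, 18.7, 11.1, 11.4 and 25.2 CPM in WT and at 210.3, 220.2 and 203.1 CPM in ACEi, the Veh mice ranging from 124 to 338 CPM around the ACEi values. Lcn2, the iron-binding lipocalin that injured distal tubules release, was at 107, 67.1 and 109 CPM in ACEi, above all WT mice (1.83 to 5.79 CPM) and below all Veh mice (283, 431 and 709.6 CPM). Krt7, a keratin of the collecting duct, was at the WT level. Aldh1a3, an enzyme of retinoic acid synthesis, was below WT but not called (-2.11 ± 1.21 log2, adjusted p = 0.178) and was lower than in Veh (-3.41 log2, adjusted p = 0.0411). Stra6, a receptor for the carrier of vitamin A, was 36.7-fold higher than in WT, with 82, 58 and 64.6 CPM in ACEi and 0.755 to 3.53 CPM in WT (5.20 ± 0.36 log2, adjusted p = 5.01e-10). Egr2, an early growth response factor, was 58.2-fold higher (5.86 ± 0.52 log2, adjusted p = 1.05e-09), and Fcrls, a receptor-like gene of macrophages, was 38.3-fold higher (5.26 ± 0.54 log2, adjusted p = 1.88e-08).

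All 16 cell cycle genes were higher than in WT, with medians of 2.74 in ACEi and 3.08 in Veh, and 2 were called as lower than in Veh. They ran from Pcna, the sliding clamp of DNA replication (0.67 ± 0.085 log2, adjusted p = 2.27e-06), to Bub1, a kinase of the mitotic checkpoint (3.42 ± 0.41 log2, adjusted p = 4.34e-07). Of 12 genes of cell cycle arrest and the p53 response 6 were higher (9 under library totals) and 4 were at the WT level, with medians of 0.29 in ACEi and 1.36 in Veh. Gdf15, a stress-induced cytokine, was higher (2.01 ± 0.36 log2, adjusted p = 0.000108), and Zmat3, a p53 target, was at 0.025 log2. The arrest gene Cdkn2a, picked after its values were seen, was 0.16 log2 from WT (adjusted p = 0.887) and -3.17 log2 from Veh (adjusted p = 0.00168).

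Genes of the proximal tubule, the segment that reabsorbs most of the filtrate, had recovered in part. Of 16 markers 8 were still lower than in WT, 1 was higher and the other 7 were neither called nor at the WT level. All 16 were called as higher than in Veh, with medians of -0.79 in ACEi and -2.16 in Veh. Under library totals 4 markers were lower, without ACEi mouse 1 there were 5, and with only the WT and ACEi mice fitted 13. Lrp2, the endocytic receptor megalin (picked after its values were seen), was at 1757, 1801, 1437, 1304 and 1388 CPM in WT and at 780.3, 947 and 781 CPM in ACEi (-0.88 ± 0.23 log2, adjusted p = 0.00492). The ACEi mice lay between the WT mice and the Veh mice (179.7, 284 and 459.7 CPM) without overlap with either. Kap, an androgen-regulated proximal tubule protein, was below WT in all 3 ACEi mice (11852, 13497 and 14575 against 20922 to 32505 CPM) but was not called (-1.05 ± 0.64 log2, adjusted p = 0.204). Slc5a12, a lactate transporter, was at -0.20 log2 (adjusted p = 0.633). The 1 marker above WT was Slc13a1, a sodium-sulfate transporter, at 414, 372, 273, 246 and 288 CPM in WT and 699, 744 and 679 CPM in ACEi (1.15 ± 0.21 log2, adjusted p = 0.000148), also above Veh (adjusted p = 0.0323).

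Of 17 transporters of organic ions and peptides, which secrete drugs and take up peptides in the proximal tubule, 12 were lower than in WT. A further 1 was higher, and the other 4 were neither called nor at the WT level. Against Veh 14 were called as higher (medians -0.78 in ACEi and -2.44 in Veh). Under library totals 5 were lower, and 5 and 10 on the first and second flow cell alone. Without ACEi mouse 1, ACEi mouse 3, WT mouse 1 or WT mouse 5 the lower ones numbered 6, 5, 6 and 7. Slco4c1, an organic anion transporter, was the lowest (-2.14 ± 0.50 log2, adjusted p = 0.00236) and was lower than in Veh by a difference that was not called (adjusted p = 0.117). Abcc4, an efflux pump, was the higher member (0.71 ± 0.17 log2, adjusted p = 0.00216). Of 16 cytochrome P450 genes 8 were lower, 1 was higher and the other 7 were neither called nor at the WT level. Against Veh 13 were called as higher (medians -0.87 in ACEi and -2.93 in Veh). Cyp2d12 was at 167, 110.1, 147, 63.4 and 167 CPM in WT and at 21.3, 33.6 and 27.9 CPM in ACEi (-2.25 ± 0.70 log2, adjusted p = 0.0198). The call for Cyp2d12 was lost without ACEi mouse 1 and without ACEi mouse 3. Cyp4a10, a fatty acid hydroxylase, was not called (-0.10 log2, adjusted p = 0.852). Of 25 genes of amino acid catabolism 18 were lower and 1 higher, and 22 were called as higher than in Veh (medians -0.85 and -2.29). Hpd, an enzyme of tyrosine breakdown, was the lowest (-1.60 ± 0.51 log2, adjusted p = 0.0195), Kynu, an enzyme of tryptophan breakdown, was the higher one (1.24 ± 0.35 log2, adjusted p = 0.00579), and Oat, the ornithine aminotransferase, was at 0.035 log2.

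Genes of energy metabolism stayed below WT by less than 2-fold in most cases. All 34 nuclear genes of complex I, the entry point of the respiratory chain, were lower than in WT, all 14 of complexes II and III, all 11 of complex IV, and 12 of 14 of complex V, the ATP synthase. Their medians lay between -0.64 and -0.56 log2 in ACEi and between -1.36 and -1.11 in Veh. Of the 34 complex I genes 33 were called as higher than in Veh. The complex I differences ran from -0.79 for Ndufs7 to -0.35 for Ndufa7, both subunits of the enzyme, and the CPM of each of these genes did not overlap between ACEi and WT. Atp5l, a subunit of the ATP synthase, was not called (-0.27 ± 0.21 log2, adjusted p = 0.302). Of the 13 protein genes of the mitochondrial genome 11 were lower, from mt-Nd3 (-0.92 ± 0.17 log2, adjusted p = 0.000315) to mt-Co2, which was not called (-0.46 ± 0.26 log2, adjusted p = 0.155). Under library totals the lower genes numbered 26, 9, 7, 9 and 9 in these 5 groups, and the first flow cell alone, with 1 ACEi mouse, called 18, 8, 3, 6 and 3 of them. The second flow cell alone called 33, 12, 10, 10 and 4.

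Fatty acid oxidation, the main fuel of the proximal tubule, had 17 of 21 genes lower than in WT and all 21 called as higher than in Veh (medians -0.61 and -1.46). Acadm, the medium-chain dehydrogenase, was the lowest (-1.03 ± 0.26 log2, adjusted p = 0.00378), and Ppara, the receptor that drives these genes, was not called (-0.20 ± 0.25 log2, adjusted p = 0.538). All 15 genes of the citric acid cycle were lower than in WT and higher than in Veh, from Pcx, which refills the cycle from pyruvate (-0.89 ± 0.25 log2, adjusted p = 0.0086), to Cs, the citrate synthase (-0.42 ± 0.078 log2, adjusted p = 0.000214). Of 15 genes of gluconeogenesis and glycolysis 10 were lower and 2 higher. Pck1, the key enzyme of gluconeogenesis, was -1.14 log2 from WT (adjusted p = 0.00351), Hk2, the inducible hexokinase, was 2.70 log2 (adjusted p = 1.06e-07), and Ldhb, a lactate dehydrogenase chain, was not called (-0.17 log2). Under library totals the lower genes in these 3 groups numbered 10, 12 and 3. The share of counts from the mitochondrial genome, given above, moved with these genes, and its part in the result was not tested.

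The 12 genes furthest below WT by the naming rule had varied roles. That rule takes only called genes whose CPM do not overlap between ACEi and WT. Perm1, a muscle-type regulator of mitochondrial genes, was at 11.8, 9.23, 9.46, 10.4 and 10.5 CPM in WT and at 1.71, 2.36 and 1.87 CPM in ACEi, 5.18-fold lower (-2.37 ± 0.25 log2, adjusted p = 5.61e-07). The Veh mice were at 1.46, 2.33 and 2.53 CPM as lowest, median and highest, and the difference between ACEi and Veh was not called, at -0.095 log2 (95% interval -0.61 to 0.42). Dnase1, a secreted nuclease that the kidney makes, was at 1489, 812, 1008, 911 and 984 CPM in WT and at 122, 277 and 222 CPM in ACEi, 5.03-fold lower (-2.33 ± 0.46 log2, adjusted p = 0.000965). In Veh it was at 6.08, 13.2 and 33.2 CPM, so the ACEi mice lay 3.62 log2 above Veh (adjusted p = 1.41e-05) and still below every WT mouse. Kcnt1, a sodium-activated potassium channel, was at 10.7, 18.9, 17.9, 18.6 and 22.7 CPM in WT and 3.61, 2.61 and 1.26 CPM in ACEi (-2.83 ± 0.55 log2, adjusted p = 0.00065), with -4.23 log2 in Veh. Nccrp1, a protein that resembles a receptor of killer cells, was 6.82-fold lower (-2.77 ± 0.72 log2, adjusted p = 0.00734, -3.40 log2 without ACEi mouse 1). Dusp15, a dual-specificity phosphatase, and Lrrc66, a leucine-rich repeat protein, were 4.81-fold and 4.67-fold lower. Tmprss9, a transmembrane protease, was 4.52-fold lower (-2.18 ± 0.49 log2, adjusted p = 0.00199), a call that the first flow cell alone did not make. Ugt1a7c, a glucuronidation enzyme, was 4.66-fold lower, but 51.4% of its exon bases are shared with Ugt1a6a, so its counts are uncertain.

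Of the remaining 4 of those 12, Cyp2d12 was described with the cytochrome P450 genes and Aqp4 is described with the collecting duct. The other two, Hbb-bt, a β-globin, and Alas2, the heme synthesis enzyme of red cell precursors, are erythroid. Hbb-bt was at 315, 872, 251, 134 and 236 CPM in WT and at 52, 96.9 and 58.1 CPM in ACEi (-2.39 ± 0.66 log2, adjusted p = 0.0105), and Alas2 was 5.16-fold lower (-2.37 ± 0.57 log2, adjusted p = 0.00359). The groups did not overlap, as the naming rule requires, but WT mouse 2 was far above the other WT mice. Without it the log2 differences were -1.76 and -1.62. The call for Hbb-bt was lost without ACEi mouse 1 (-2.21 log2), and neither gene was called on the second flow cell alone. All 8 erythroid markers were lower than in WT, with summed levels of 402 to 789 CPM in ACEi, 1171 to 6637 CPM in WT and 21.3 to 420.4 CPM in Veh. The first flow cell alone called 3 of the 8 and the second called 1, and 4 were called without ACEi mouse 1 and 5 without WT mouse 2. The part of red cells in these results was not tested.

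Promoter sequence of RefSeq (GRCm38.p6) was available for 12611 of the genes tested (71.6%), for 9 of the 12 named higher genes and for 7 of the 12 named lower genes. In the 250 bases before the RefSeq start, the letters GTTAAT, the core of the site of the tubule factor HNF1 searched on both strands, occurred in 4.46% of all 12611 promoters, in 9.26% of the 324 promoters of genes at least 2-fold lower and in 4.09% of the 1712 of genes at least 2-fold higher. The letters GAGGAAGT of the myeloid factor PU.1 occurred in 2.54%, 1.85% and 5.20% of them, GAAANNGAA of the interferon response in 6.53%, 6.17% and 9.87%, and TGANTCA of AP-1 in 4.78%, 6.48% and 7.48%. The shares for AAGGTCA of ESRRA were 3.07%, 4.94% and 3.74%, and those for CAAAGTCCA of HNF4 were 0.373%, 0.617% and 0.701%. Matches of different motifs can overlap, and a match is a description of the sequence only. The promoters printed 5′ to 3′ come from named genes with a match. The motifs used for this were HNF4 or HNF1 for low genes and PU.1 or AP-1 for high genes. Of the 2 low genes, Perm1 (chr4:156215677-156215926, plus strand) was not called as different from Veh and Dnase1 (chr16:4036786-4037035, plus strand) came part of the way back. The 1 high gene, Cxcl10 (chr5:92348890-92349139, minus strand), stayed high. Capitals mark the HNF1 and AP-1 matches, GTTAAT in Perm1, ATTAAC (the same letters on the other strand) in Dnase1 and TGAGTCA in Cxcl10. Of the other motifs searched, Perm1 also holds TGACCTT (the ESRRA letters on the other strand) and Cxcl10 holds GAAAGTGAA of the interferon response, both in lower case in the sequences.
Perm1: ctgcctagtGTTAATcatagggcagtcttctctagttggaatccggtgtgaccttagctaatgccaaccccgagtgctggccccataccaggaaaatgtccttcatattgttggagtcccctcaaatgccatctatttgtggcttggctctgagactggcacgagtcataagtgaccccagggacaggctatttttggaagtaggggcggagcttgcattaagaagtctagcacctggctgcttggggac
Dnase1: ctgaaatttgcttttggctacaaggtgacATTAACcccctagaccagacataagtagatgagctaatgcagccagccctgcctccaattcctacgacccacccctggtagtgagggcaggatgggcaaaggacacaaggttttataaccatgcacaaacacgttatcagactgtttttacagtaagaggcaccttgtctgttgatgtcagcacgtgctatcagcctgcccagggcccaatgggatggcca
Cxcl10: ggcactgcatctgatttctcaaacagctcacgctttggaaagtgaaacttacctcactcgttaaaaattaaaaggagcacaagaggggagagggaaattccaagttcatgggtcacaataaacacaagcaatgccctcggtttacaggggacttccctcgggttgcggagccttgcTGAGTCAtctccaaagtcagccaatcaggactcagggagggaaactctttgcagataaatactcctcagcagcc

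In the segments downstream of the proximal tubule, the markers were counted in the same way. In the thick ascending limb, which dilutes the urine, 6 of 8 markers were lower than in WT and 1 was higher. Under library totals 4 were lower and 1 higher, and on the second flow cell alone 5 were lower and none was higher. Egf, the growth factor that this segment secretes, was at 344, 346 and 238 CPM in ACEi, below all WT mice (1003 to 1412 CPM) and above all Veh mice (16.6, 36.5 and 125 CPM), with a difference from WT of -1.97 ± 0.47 log2, adjusted p = 0.00357. Cldn16, a tight junction protein that passes magnesium, was the higher one (0.46 ± 0.13 log2, adjusted p = 0.00658), and Umod, the gene of uromodulin, was the member not called (-0.41 ± 0.22 log2, adjusted p = 0.142). In the distal convoluted tubule, which fine-tunes sodium and magnesium, 7 of 8 markers were lower and none was higher (4 lower under library totals or without ACEi mouse 1). Pvalb, a calcium buffer, was lowest (-1.92 ± 0.57 log2, adjusted p = 0.0134).

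In the collecting duct, 3 of 10 markers of the principal cells, which take up water and sodium, were lower than in WT and 4 were at the WT level, namely Hsd11b2, Scnn1b, Scnn1g and Gata3. The sodium channel subunit Scnn1b was at 0.027 log2 (95% interval -0.23 to 0.29). The lower ones were Avpr2, Scnn1a and Aqp4. Aqp4, the water channel of the basolateral membrane, had the largest difference of the 10. It was at 60.7, 50.2, 65.7, 83.3 and 92.2 CPM in WT, at 9.45, 8.34 and 4.74 CPM in ACEi and at 6.3, 17.5 and 32.3 CPM in Veh as lowest, median and highest. It was 9.37-fold lower than in WT (-3.23 ± 0.43 log2, adjusted p = 1.79e-05) and lower than in Veh (-1.27 log2, adjusted p = 0.0257), although the ACEi and Veh ranges overlapped. Of 8 markers of the intercalated cells, which secrete acid and base, 4 were lower than in WT (2 under library totals) and 2 were at the WT level. Slc4a1, their bicarbonate exchanger, was lowest (-1.44 ± 0.36 log2, adjusted p = 0.00356) and is an erythroid gene as well, and Atp6v0d2, a proton pump subunit, was not called (-0.22 log2). Genes of phosphate and vitamin D handling were lower in 6 and higher in 2 of 10 cases (3 and 2 under library totals). Kl, the coreceptor of the phosphate hormone FGF23, was at 777, 745, 658, 609 and 602 CPM in WT and at 344, 368 and 303 CPM in ACEi (-1.0 ± 0.20 log2, adjusted p = 0.000633), above all Veh mice (82, 120.3 and 189 CPM). Cyp27b1, which activates vitamin D, was higher (1.82 ± 0.42 log2, adjusted p = 0.00119), with a log2 difference of 1.79 in Veh.

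In the glomerulus, 9 of 10 podocyte markers were higher than in WT, with medians of 0.78 in ACEi and 0.88 in Veh. Ptpro, a phosphatase of podocyte foot processes, had the largest difference (1.2 ± 0.15 log2, adjusted p = 1.21e-06), and Magi2, a scaffold of the slit diaphragm, was not called (0.11 log2, adjusted p = 0.489). Nphs1, the gene of nephrin, was at 18.7, 25.4, 18, 16.1 and 12.8 CPM in WT and at 33, 27.8 and 25.6 CPM in ACEi (0.66 ± 0.16 log2, adjusted p = 0.0017). It was also called as higher than in Veh (0.58 log2, adjusted p = 0.00424) and was picked for that. Endothelial markers were low in WT mouse 5, with a sum of 302 CPM against a WT median of 729.6 CPM. Of the 10, 3 were higher in ACEi (6 under library totals, 1 on either flow cell alone or with only the WT and ACEi mice fitted, and 1 without ACEi mouse 1, ACEi mouse 2 or WT mouse 1). Without WT mouse 5, 3 were higher and 1 lower, and the median went from 0.32 to 0.15. The higher ones were led by Eng, a coreceptor for TGF-β (0.73 ± 0.16 log2, adjusted p = 0.000798), whereas Ehd3, which marks glomerular endothelium, was at -0.091 log2 and Kdr, the main receptor of VEGF, was at -0.16 log2. Neither was called.

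In all, 28 genes that differed at least 2-fold between Veh and WT were at the WT level in ACEi, 10 of them higher and 18 lower in Veh, among 6145 genes with such a difference. For these 28 the ACEi and Veh CPM did not overlap, and all were called between ACEi and Veh. Both largely follow from choosing genes far from WT in Veh and near it in ACEi, so they add no support. A further 4738 of the 6145 were still called. Of the genes that differed at least 4-fold in Veh, 2264 of 2757 were still called. None was at the WT level, a rule that genes with wide intervals cannot meet.

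Krt7, the collecting duct keratin named above, was at 121, 94.4, 108, 142 and 147 CPM in WT, at 134, 115 and 154 CPM in ACEi and at 216, 270.2 and 396 CPM in Veh, with a difference of ACEi from WT of 0.13 log2 (95% interval -0.25 to 0.52). Fstl3, a secreted antagonist of activins, was at 10.8, 13.5, 14.1, 13.9 and 14.9 CPM in WT, 13.5, 13.9 and 14.4 CPM in ACEi and 25.3, 29 and 37.5 CPM in Veh, although 47.3% of its exon bases are shared with Prss57. The ACEi mice fell inside the WT range for both genes except for Krt7 in ACEi mouse 3. B3gnt7, an enzyme of keratan sulfate synthesis, was at 6.66, 4.62 and 6.81 CPM against 4.39 to 6.8 CPM in WT and a lowest Veh value of 10.7 CPM. Ephb2, a receptor of ephrins, was at 18.5, 11 and 14.6 CPM against 9.4 to 17.1 CPM in WT and at least 29.7 CPM in Veh. Hoxb5, a patterning gene, was at 0.16 log2 from WT and Plcd1, a phospholipase C, at 0.29 log2. Plcd1 missed the threshold narrowly (adjusted p = 0.0796) and was called under library totals, without WT mouse 4 and with a stricter filter. Hoxb5 was called under library totals as well.

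Among the genes that had been low in Veh, Tmem144, a transmembrane protein, was at 22.9, 20.8, 26.1, 22.1 and 26.5 CPM in WT, 21.4, 23.5 and 20.6 CPM in ACEi and 8.21, 9.28 and 10.9 CPM in Veh (-0.12 log2 from WT, 95% interval -0.37 to 0.13). Igsf11, an adhesion molecule, was at 104, 128, 103, 113 and 104 CPM in WT, 109, 109.9 and 94.9 CPM in ACEi and 35, 47.9 and 70 CPM in Veh. Its ACEi and WT values overlapped. Being at the WT level did not always mean overlapping values, since the ACEi mice lay below all WT mice for Gnpda1, an enzyme of amino sugar breakdown (-0.24 log2), and for Anks4b, a scaffold of the brush border (-0.25 log2). Erlin1, a protein of the endoplasmic reticulum, was at -0.24 log2. It was called without WT mouse 4, and Gnpda1 was called when only the WT and ACEi mice were fitted. Ugt1a6b, a further glucuronidation enzyme, was at -0.022 log2, with 60.6% of its exon bases shared with Ugt1a7c.

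**Figure D4:**
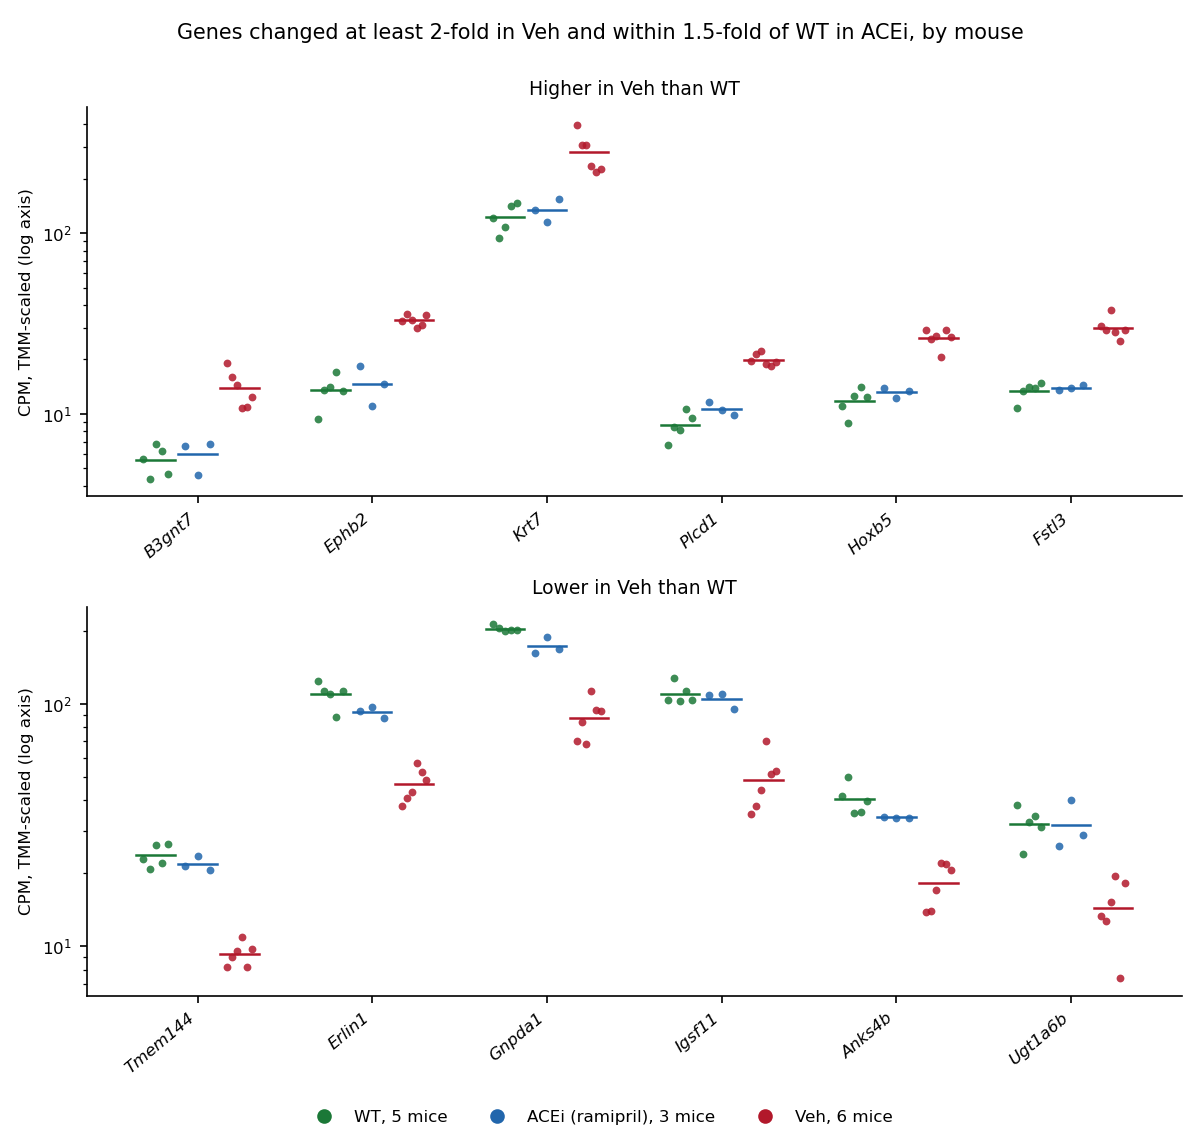
CPM (log axis) of the 6 genes with the largest rise and the 6 with the largest fall in Veh among those at the WT level in ACEi, with 1 point per mouse for 5 WT, 3 ACEi and 6 Veh mice and a line at each group's mean. The ACEi points lie apart from all Veh points for every gene drawn, which largely follows from how the genes were chosen. They lie below all WT points for Gnpda1 and Anks4b.

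Ramipril-treated mice were neither at the WT nor at the Veh level but beyond both for 173 genes (0.982% of the genes tested), 57 higher and 116 lower than both groups. Of these, 136 were not called between Veh and WT. The number depended on single mice, with 87 genes without ACEi mouse 2 and 95 without ACEi mouse 3. Ren1 (chr1:133350510-133360325, plus strand), the gene of renin, the protease upstream of the enzyme that ramipril inhibits, came first among the named ones. It was at 80.4, 98.2, 72.3, 80.6 and 41.7 CPM in WT, at 488, 605 and 453 CPM in ACEi and at 23.8, 29.3 and 37.7 CPM in Veh. It was 6.9-fold higher than in WT (2.79 ± 0.20 log2, adjusted p = 1.21e-09) and 4.11 log2 above Veh (adjusted p = 6.06e-11), and the 3 groups did not overlap.

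Akr1b7, an aldose reductase relative that renin-making juxtaglomerular cells express, was next, at 3.47, 4.72, 3.97, 3.52 and 3.27 CPM in WT, 10.8, 15.7 and 14.8 CPM in ACEi and 2.91, 4.04 and 6.18 CPM in Veh (1.86 ± 0.22 log2, adjusted p = 7.59e-07). It shares 27.2% of its exon bases with Gm13857. Of 13 tested genes of the renin-angiotensin system and of juxtaglomerular cells, 3 were higher than in WT, 4 lower and 4 at the WT level. Their median of -0.10 became 0.22 under library totals, where 6 were higher and none was lower. In Veh 10 were called as lower than in WT, and 8 were called as higher in ACEi than in Veh. Ace, the enzyme that ramipril blocks, was at 364, 335, 414, 361 and 254 CPM in WT and at 200, 205.3 and 185 CPM in ACEi (-0.81 ± 0.24 log2, adjusted p = 0.0095), above all Veh mice (42.5, 51.6 and 97.9 CPM). Mas1, a receptor of angiotensin 1-7, was not called (0.021 log2, adjusted p = 0.974). Agtr1a, the main angiotensin II receptor, which was picked after its values were seen, was at 61.6, 58.7, 56.8, 53.1 and 58.9 CPM in WT and at 49.1, 62.9 and 51.8 CPM in ACEi, against 26.3, 31.2 and 39.6 CPM in Veh. Its ACEi and WT values overlapped.

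Further genes above both groups were Rab3b, a GTPase of secretory vesicles (1.53 ± 0.21 log2, adjusted p = 4.16e-06), Ptpn22, a phosphatase of lymphocytes (1.24 ± 0.18 log2, adjusted p = 1.29e-05), and Bcl6, a transcriptional repressor (1.2 ± 0.46 log2, adjusted p = 0.0357). These values are against WT. Against Veh the differences were 0.48, 0.53 and 1.22 log2 in that order (adjusted p = 0.049, 0.0177 and 0.0301). Rab3b and Ptpn22 were also called as higher in Veh than in WT (1.05 and 0.71 log2). Bcl6 was at 46.8, 12.9, 28.2, 48.4 and 51 CPM in WT and at 106, 83.5 and 68.5 CPM in ACEi, and its call was lost without ACEi mouse 1 or 2, without WT mouse 2 or 3 and on the first flow cell alone.

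Below both groups stood Aqp4, described with the collecting duct, and Slc14a2, the urea transporter of the inner medulla, at 2.63, 20.4, 29.1, 70.5 and 34.6 CPM in WT, 15.4, 5.15 and 2.69 CPM in ACEi and 20, 35.1 and 39.4 CPM in Veh. The ACEi values overlapped those of WT because WT mouse 1 was the lowest of all 8, and the difference (-2.02 ± 0.71 log2, adjusted p = 0.0327) was not called without ACEi mouse 2, ACEi mouse 3 or WT mouse 4, on the first flow cell alone, under library totals or with only the 2 groups fitted. It was -3.00 log2 without ACEi mouse 1. Elf5, a transcription factor of the collecting duct, overlapped WT as well and lost its call under the same settings (-1.70 ± 0.56 log2, adjusted p = 0.0224). Id4, an inhibitor of helix-loop-helix factors, was at 17.1, 17.7, 16.6, 17.8 and 24.2 CPM in WT and 8.1, 5.69 and 4.19 CPM in ACEi (-1.64 ± 0.20 log2, adjusted p = 4.01e-06), with a Veh median of 9.31 CPM. Its difference from Veh was -0.66 log2 (adjusted p = 0.0136), and the lowest Veh value, 7.35 CPM, overlapped the ACEi range. Adssl1, an enzyme of purine synthesis in muscle, was -1.23 log2 from WT (adjusted p = 6.07e-06). Wscd2, a membrane protein, was at 11.4, 11.5, 11.1, 11 and 11.3 CPM in WT and at 5.28, 5.37 and 4.29 CPM in ACEi (-1.18 ± 0.19 log2, adjusted p = 6.28e-05), and its ACEi values overlapped those of Veh (4.7, 7.42 and 10.6 CPM).

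**Figure D5:**
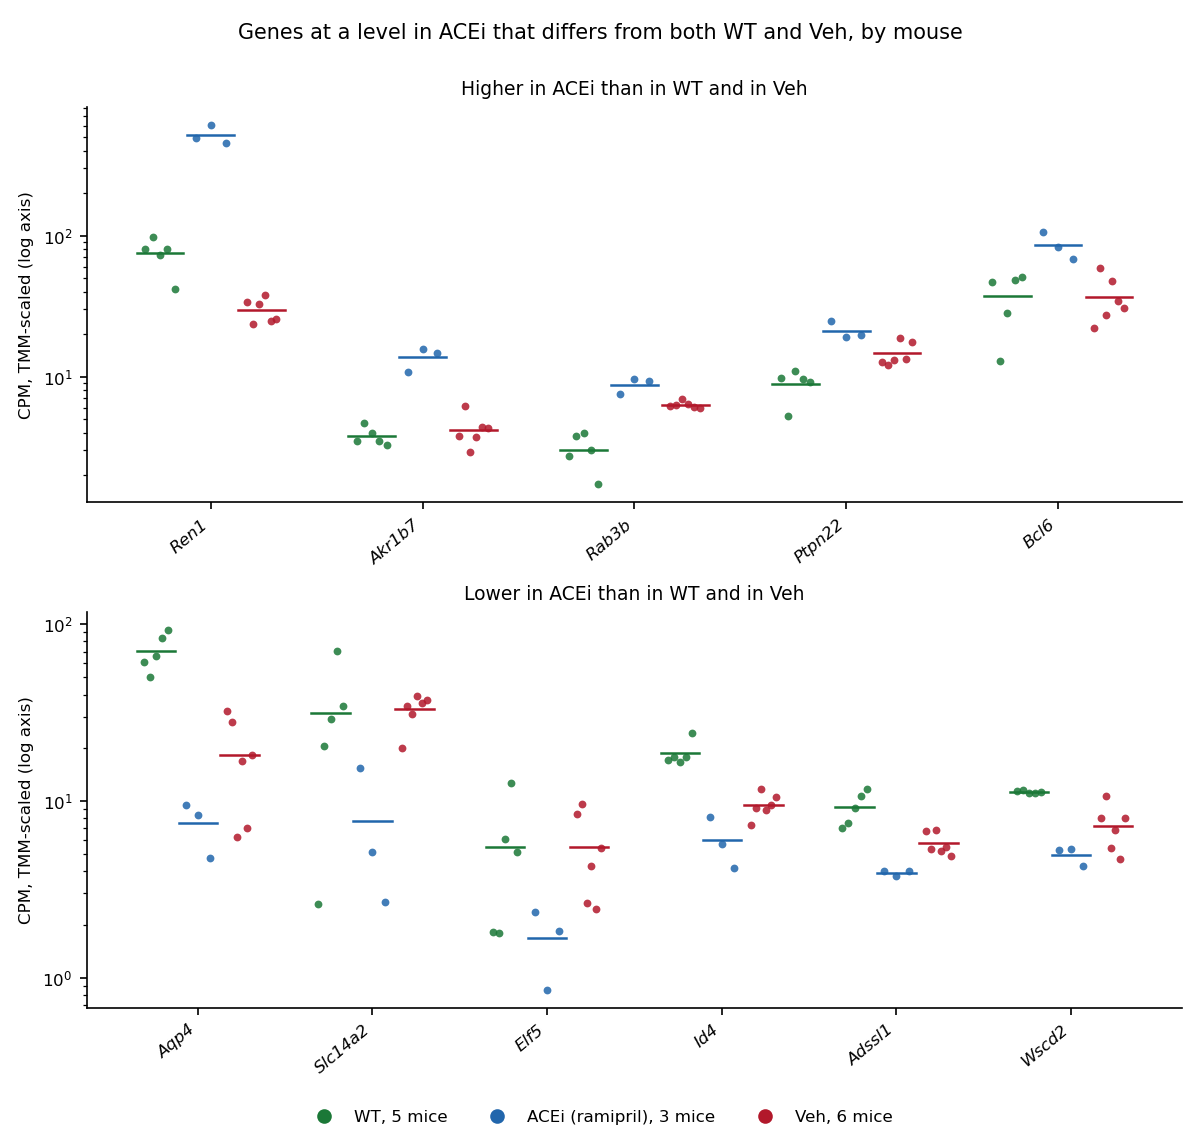
CPM (log axis) of 5 of the 6 genes highest and the 6 lowest in ACEi among those called in the same direction against both WT and Veh, with 1 point per mouse for 5 WT, 3 ACEi and 6 Veh mice and a line at each group's mean. Ren1 in ACEi, at 453 to 605 CPM, lies above all WT and Veh points, whereas for Slc14a2 and Elf5 the ACEi points overlap those of WT.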

How the data were processed

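Total kidney RNA was sequenced as paired-end reads. Alignment to GRCm38 used the OmicSoft software, and the authors deposited an unscaled estimated count for each Ensembl gene. The strand setting of the counting is not given in the sources used here, so genes that overlap cannot be told apart. The authors also deposited FPKM values, normalized for length and depth, and, per the file headers, a count of alignments per library (70004591 to 73294858). Of the positive counts, 27.9% were not whole, and all were rounded. Low genes were removed by filterByExpr (count 10, total 15). The test was edgeR's quasi-likelihood F test (edgeR 4.0.16, R 4.3.3) on TMM-scaled libraries of all 20 mice, with a coefficient for every group and p-values adjusted by Benjamini-Hochberg. CPM are TMM-scaled, and mouse numbers within a group follow accession order. Intervals are 95% intervals from the fitted SE, and the steps were tested on simulated data.

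Gene symbols came from the annotation of the same build for 98.9% of genes, and the others held 0.0569% of the counts. The members and the 47 lists were chosen with earlier results of these data known. Named genes were protein-coding, with mean log2 CPM of 1 or more: the 12 highest and 12 lowest called against WT without overlap of the groups, the 6 with the largest rise and the 6 with the largest fall in Veh that were at the WT level in ACEi, the 6 highest and 6 lowest beyond both groups, Col4a3, Ren1, and for each list the members with the largest, smallest and nearest-to-0 difference. Some genes that this rule names are not reported here. The alternatives were DESeq2 1.42.0, library totals, upper-quartile scaling, other filters, flow cell as a term or alone, fewer groups, each mouse left out, other margins, and limma 3.58.1 on log2(FPKM + 1) at the study's criterion (fold 1.2, p 0.01). Of the FPKM columns 3 matched no labelled mouse and were not used. Figures were drawn with matplotlib 3.10.9 in Python 3.11.15, with pandas 2.3.3 and numpy 2.4.6.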

Additional observations from a re-analysis of the deposited data

Results flagged for a closer look

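In 5 of 95 sets of 5 WT values examined for a single mouse far from the others (gap over range above 0.71), 1 WT mouse stood apart, and chance gives about 1 in 20. The lymphocyte phosphatase Ptpn22 was at 2.42 log2 CPM in WT mouse 2, below the other WT mice. Id4, the inhibitor of helix-loop-helix factors, was at 4.60 log2 CPM in WT mouse 5, above the others. The mean centred log2 level of the erythroid markers was 1.16 in WT mouse 2, above the others. For WT mouse 4 the same measure was -0.13 for the transporters of organic ions and peptides and 0.47 for the coagulation genes. Without WT mouse 2 the log2 differences of Hbb-bt and Alas2 were -1.76 and -1.62, and all other named genes other than Bcl6 kept their call.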

How the results depend on the processing

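The numbers of genes called against WT (8405), of Veh-called genes still called in ACEi (8033), of those at the WT level (2742) and of genes beyond both groups (173) stayed within 1.5 times under DESeq2 (8798, 8359, 2648 and 239), library totals, upper-quartile scaling, both other filters, flow cell as a term and fewer groups in the fit. The first flow cell alone gave 4893, 4751 and 61 for the first, second and last, and the second flow cell alone gave 4999, 4771, 1520 and 35. Each uses fewer mice. With the narrower of the other margins 1279 genes were at the WT level. Leaving out 1 mouse at a time gave 6856 to 8418, 6657 to 8009, 2609 to 3230 and 87 to 198. The lowest values for genes beyond both groups were 87 without ACEi mouse 2 and 95 without ACEi mouse 3, and the cause was not tested. The criterion on log2(FPKM + 1) called 6825 of 21460 entries, 5975 higher and 850 lower. Over the alternatives, named genes kept their side of the threshold in 774 cases, lost the call in 24 and gained it in 6, and list medians moved by less than 1 SD between ACEi mice in 624 cases and by more in 175. The medians of 3 lists changed sign. That of the renin-angiotensin and juxtaglomerular list went from -0.10 to 0.22 under library totals. The adrenal median went from -0.069 to 0.24 under library totals, to 0.39 on the second flow cell alone, and to 0.15, 0.21 and 0.038 without ACEi mouse 3, WT mouse 2 and WT mouse 5. That of lymph node stroma went from 0.56 to -0.21 with 10 counts required in every mouse. No paired analysis was possible because the mouse numbers follow accession order and pair no mice. Rare transcripts and genes with a large spread between the 3 ACEi mice limit what can be called.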

Other observations

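Of 14 genes of the unfolded protein and integrated stress response, 8 were higher in ACEi than in WT and 3 were at the WT level, with medians of 0.42 in ACEi and 0.52 in Veh. Atf3, a stress-induced transcription factor, was at 1.43, 0.820, 1.1, 1.31 and 1.05 CPM in WT and at 19.9, 27.7 and 22.5 CPM in ACEi (4.35 ± 0.40 log2, adjusted p = 1.99e-08). Xbp1, a transcription factor of the endoplasmic reticulum response, was not called (-0.27 to 0.28 log2 as the 95% interval). Of 17 antioxidant and NRF2 response genes 10 were lower and 2 higher (6 lower and 4 higher under library totals). Gclc, which starts glutathione synthesis, was lowest (-1.19 ± 0.21 log2, adjusted p = 0.00022), and Srxn1, an enzyme that repairs peroxiredoxins, was at 0.064 log2.

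Of 19 genes of the Wnt pathway, which directs nephron formation and is active again in fibrosis, 9 were higher than in WT and 1 lower, and 13 were called as lower than in Veh (medians 0.21 in ACEi and 1.34 in Veh). Tcf7, a transcription factor of the pathway that T cells also express, was 2.04 log2 above WT (adjusted p = 4.67e-06). Wnt7b, a ligand made in the collecting duct, was -0.83 log2 from WT (adjusted p = 0.124), while its log2 difference in Veh was 1.34. Of 12 genes of coagulation and fibrinolysis 10 were higher and 1 lower. Plau, the gene of urokinase, an activator of plasminogen, was the lower one (-0.67 ± 0.12 log2, adjusted p = 0.000207) and was also lower than in Veh (-0.44 log2, adjusted p = 0.00596).

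Of 8 adipocyte markers 1 was lower than in WT, the lipase Lpl (-1.34 ± 0.22 log2, adjusted p = 0.000111), and 7 were not called. Between Veh and WT 6 were called as higher and 1 as lower, and 5 were called as lower in ACEi than in Veh. Of 4 tested adrenal markers 1, the steroid hydroxylase Cyp17a1, was lower, at a level of at most 0.755 CPM in WT, and it was not called under library totals. Of 6 pancreas markers 1 was tested, Cela1, an elastase, and it was not called (-0.36 ± 0.19 log2, adjusted p = 0.13). Of 5 markers of lymph node stroma 2 were higher, led by Madcam1, a homing molecule of lymphocytes at 0.853, 0.644 and 0.681 CPM in ACEi and at most 0.0820 CPM in WT, and 1 was lower, Prox1, a factor of lymphatic vessels that tubule cells of the medulla also express (-1.64 ± 0.45 log2, adjusted p = 0.0073).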
